A study of Homo sapiens with 6 samples.

Results

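The genes described here encode regulators of G-protein signaling (RGS proteins), followed in a triple negative breast cancer (TNBC) cell line with and without knockdown of PELP1. The 10 members were chosen by gene symbol, from values of the same comparison between PELP1-KD and control cells that were already known, and are RGS2, RGS3, RGS4, RGS10, RGS12, RGS14, RGS16, RGS17, RGS19 and RGS20 among the 23228 genes in the count tables. Their differences between the groups are therefore a description, and no p-value is given for them. RNA-seq libraries were made from MDA-MB-231, a human line that began as a TNBC, as 3 replicates of cells with a stable non-targeted control shRNA and 3 replicates of cells with a stable PELP1 shRNA. Both groups were made by lentiviral delivery and puromycin selection and were grown in RPMI medium with serum. A single PELP1 shRNA was used, and the labels do not say that the replicates came from separate selections or cultures, so the spread between replicates may be technical.

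A receptor of the G-protein-coupled type switches on its G protein by loading GTP onto the alpha subunit, which then separates from the beta and gamma subunits. RGS proteins bind the loaded alpha subunit and speed the hydrolysis of its GTP, which ends the signal. The family is divided by sequence into the R4, RZ, R12 and R7 subfamilies. Most R4 proteins are little more than the RGS domain and act on the Gi and Gq classes, the R12 proteins RGS12 and RGS14 also carry a GoLoco motif that holds GDP-bound Gi, the RZ proteins can act on Gz, and the R7 proteins work as pairs with the beta subunit GNB5. The members hold 4 genes of the R4 subfamily, 3 of RZ and 3 of R12, and none of R7.

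In PELP1-KD cells RGS16 and RGS4 were lower by a log2FC beyond 1, RGS10, the member with the highest level, was 17.9% lower, and RGS3 and RGS19 were 15.9% and 20.4% higher. In this text log2FC is the log2 of the ratio of PELP1-KD to control from edgeR's quasi-likelihood fit over 12796 tested genes, and CPM is the count relative to the size of the library after TMM scaling. These are bulk samples, in which fewer cells with a transcript and less of it per cell cannot be told apart. All 10 members passed the filter on low counts. At an adjusted p-value below 0.05 in that fit, 3 members (RGS4, RGS10 and RGS16) were lower, where 24.2% of all tested genes were, and 2 (RGS3 and RGS19) were higher, where 22.7% of all tested genes were. The replicates of the groups did not overlap in CPM for 6 members, against 55% of all tested genes, and nothing is read from these counts because the same comparison was known when the members were chosen. The median log2FC of the members was -0.209, and that of all tested genes was 0.00139. With scaling by library totals in place of TMM, 2418 of all tested genes were lower and 3817 higher, where TMM gave 3103 and 2904, and no member changed sign.

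The sequence just before the annotated start of transcription is shown for RGS4 and RGS16, the 2 members with a log2FC beyond 1, for RGS10, the member with the highest level, and for RGS9, an RGS gene outside the members with the highest log2FC of the family. The sequences are from RefSeq on GRCh38.p14, give the 250 bases before the start 5′ to 3′ on the strand of the gene, and have each CG dinucleotide in capitals. RGS16 lies on the minus strand of chromosome 1, chr1:182604390-182604639. RGS4 has 4 annotated starts on the plus strand of chromosome 1, and the window shown, chr1:163069111-163069360, is the one of the 4 that holds the letters TATAAA. The RGS10 window is the first of 2 and lies on the minus strand of chromosome 10, chr10:119542720-119542969. The RGS9 window lies on the plus strand of chromosome 17, chr17:65137120-65137369. The counts do not show which start was used.
RGS16: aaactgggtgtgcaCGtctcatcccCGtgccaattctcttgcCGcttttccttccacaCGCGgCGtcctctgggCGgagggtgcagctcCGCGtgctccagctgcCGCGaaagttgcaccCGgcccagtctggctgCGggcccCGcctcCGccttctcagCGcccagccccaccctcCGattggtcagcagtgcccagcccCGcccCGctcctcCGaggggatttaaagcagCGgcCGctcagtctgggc
RGS4: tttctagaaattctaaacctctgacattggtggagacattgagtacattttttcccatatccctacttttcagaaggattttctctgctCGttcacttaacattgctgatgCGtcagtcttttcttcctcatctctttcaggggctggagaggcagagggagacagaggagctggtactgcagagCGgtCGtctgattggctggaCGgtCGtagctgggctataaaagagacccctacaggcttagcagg
RGS10: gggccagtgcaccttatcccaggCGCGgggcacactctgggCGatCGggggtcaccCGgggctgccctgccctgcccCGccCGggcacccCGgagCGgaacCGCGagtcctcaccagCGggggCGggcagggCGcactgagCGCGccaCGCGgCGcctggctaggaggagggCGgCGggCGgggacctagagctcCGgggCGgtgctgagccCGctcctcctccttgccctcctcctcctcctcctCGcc
RGS9: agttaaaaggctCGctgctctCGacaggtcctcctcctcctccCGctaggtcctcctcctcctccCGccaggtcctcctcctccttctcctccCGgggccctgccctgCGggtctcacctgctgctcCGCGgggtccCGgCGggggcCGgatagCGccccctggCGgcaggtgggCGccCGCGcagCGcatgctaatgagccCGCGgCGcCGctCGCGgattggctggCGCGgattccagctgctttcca

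These windows differ in base composition. The RGS16 window holds 22 CG dinucleotides, the RGS10 window 26 and the RGS9 window 25, where the median of 35116 such windows was 11. The RGS4 window holds 6, and the other 3 RGS4 windows hold between 1 and 5. The second RGS10 window, not shown, holds 3. Of the 10 members, 9 had a RefSeq window in the set used here, with 22 windows in all, and none was used for RGS20. Searched on both strands, the cAMP response element TGACGTCA is in 0 of these 22 windows and in 1.65% of all windows. Its core TGACG is in 5 of the 22, of which 2 are windows of RGS4 and 1 each of RGS2, RGS3 and RGS12, and in 21.2% of all windows. The 2 RGS4 windows overlap, and their match is the same site. The Myc E-box CACGTG is in 2 of the 22, for RGS3 and RGS19, and in 6.34% of all windows. The AP-1 site TGAGTCA is in 0 of the 22 and in 4.2% of all windows. The TATA box TATAAA is in 2 of the 22, for RGS3 and RGS4, and in 10.7% of all windows. The core is part of the full cAMP response element, so the searches are not separate, and a match describes letters only.

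The data hold between 17304864 and 23132102 counts on genes per replicate, and 3 counts, taken as the floor of detection, stand for 0.13 to 0.173 CPM. Such floors, and the interval for RGS16 given further on, cover counting error only. PELP1 had 57.8 ± 2.14 CPM in control cells against 29.6 ± 0.876 CPM after PELP1-KD (SD over n = 3), a log2FC of -0.97 (SE 0.0552, edgeR adjusted p = 1.48e-11). Markers of the line were read in both groups, with control means from 132 CPM for EGFR to 2220 CPM for VIM over 5 genes. All 5 had lower means in PELP1-KD cells, from 111 CPM for EGFR to 1920 CPM for VIM. CD44 had 1210 CPM in control and 828 CPM in PELP1-KD cells. ESR1 had 3 counts and PGR 9 counts in all 6 replicates together, while ERBB2 had 113 CPM in control cells. Of 11 further markers, most of them of other cell types, PTPRC, MS4A1 and DCN were at 0. EPCAM had 9.46 CPM in control and 9.57 CPM in PELP1-KD cells, and COL1A1 had 5.84 CPM and 18.1 CPM. The other 6 had a mean below 1 CPM in both groups.

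RGS4 and RGS16 are small R4 proteins that act on Gi and Gq. RGS4 had 110, 139 and 105 counts in control replicates 1, 2 and 3, and 50, 46 and 68 counts in PELP1-KD replicates 1, 2 and 3. In CPM these were 6.50, 6.12 and 5.91 for control, and 2.57, 2.16 and 2.89 for PELP1-KD. Every PELP1-KD replicate of RGS4 was below every control replicate, and the groups were far apart compared with their own spread. The means were 6.18 CPM ± 0.300 (SD, n = 3) and 2.54 CPM ± 0.367 (SD, n = 3), 58.9% lower, with a log2FC of -1.28 (SE 0.144, 95% interval -1.57 to -0.98). Over 13 alternative settings the log2FC of RGS4 stayed between -1.39 and -1.17, and 0.758% of all tested genes had a lower log2FC in the fit used here.

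RGS16 is a low-level gene in these cells. Control replicates 1, 2 and 3 had 14, 12 and 12 counts of it, and PELP1-KD replicates 1, 2 and 3 had 3, 0 and 2. Its CPM was 0.828, 0.528 and 0.676 in control and 0.154, 0 and 0.085 in PELP1-KD replicates, so that the highest PELP1-KD value was below the lowest control value and no PELP1-KD replicate exceeded the floor of 3 counts. Added over replicates, the ratio of PELP1-KD to control was 0.117 with an exact 95% counting interval of 0.036 to 0.299. The fitted log2FC was -3.0 (SE 0.574, 95% interval -4.19 to -1.80), and without PELP1-KD replicate 1 it was -3.72. RGS16 passed the filter on low counts through the control replicates alone, since 0 of the 3 PELP1-KD replicates reached 0.498 CPM, so a gene kept in this way had to differ.

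RGS2 and RGS3 complete the R4 members. RGS2, which acts mainly on Gq, had 5.26, 5.41 and 4.79 CPM in control replicates and 4.21, 4.12 and 4.63 CPM in PELP1-KD replicates. The groups did not overlap, though the highest PELP1-KD replicate came close to the lowest control replicate. The log2FC of RGS2 was -0.25 (SE 0.129, 95% interval -0.52 to 0.01), which did not pass the threshold in this fit or in any of the 13 alternatives. RGS3, a longer protein made in several isoforms, had 42.2, 44.2 and 42.4 CPM in control replicates and 47.2, 51.0 and 51.0 CPM in PELP1-KD replicates, again without overlap. Its log2FC was 0.21 (SE 0.0539, 95% interval 0.10 to 0.32), opposite in sign to those of the other R4 members. The summed CPM of the 4 R4 members was 54.9 ± 1.23 CPM in control cells against 56.7 ± 2.32 CPM after PELP1-KD (SD over n = 3), with overlapping replicates, and RGS3 makes up most of this sum. Per length, where RGS3 weighs less, the summed RPKM of the same 4 genes was 7.13 ± 0.233 (SD, n = 3) and 6.23 ± 0.277 (SD, n = 3), and the groups did not overlap. That separation depends on the exon length of RGS3, 13793 bases. With the length of 1 principal transcript, RGS3 had 9.35 RPKM in control and 10.8 RPKM in PELP1-KD cells and would make up most of the sum. The sum was not recomputed with that length, and nothing is read from the separation. RPKM is CPM divided by the length of all annotated exons of the gene.

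**Figure D1:**
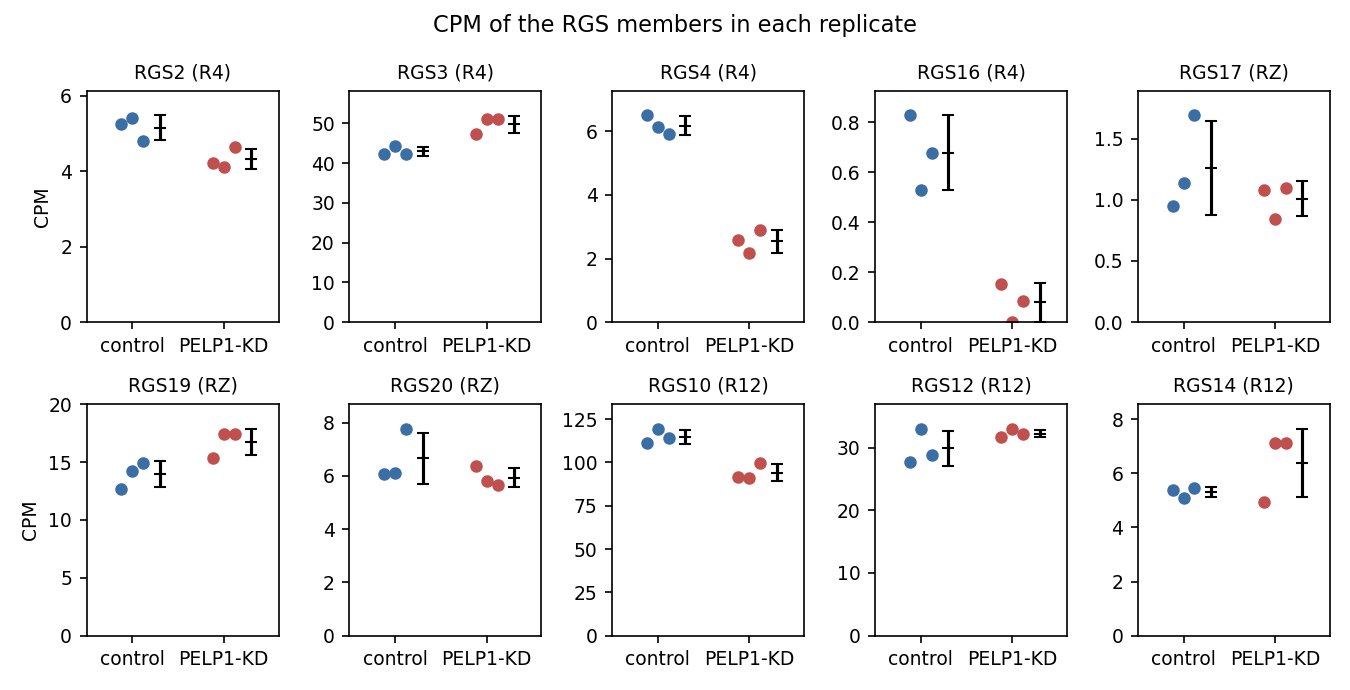
CPM (y axis, linear from 0, own scale in each panel) of the 10 RGS members in the 3 control (blue) and 3 PELP1-KD (red) replicates, with the mean and SD as a black mark beside each group and the subfamily in brackets. RGS4 lies between 5.91 and 6.50 CPM in control and between 2.16 and 2.89 CPM in PELP1-KD replicates, whereas the replicates of RGS12, RGS14, RGS17 and RGS20 overlap between groups.

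RGS10, RGS12 and RGS14 form the R12 subfamily. RGS10, a short protein of little more than the RGS domain, had 111, 119 and 114 CPM in control replicates and 91.7, 90.7 and 99.9 CPM in PELP1-KD replicates. All PELP1-KD replicates of RGS10 were lower than all control replicates, with a log2FC of -0.29 (SE 0.0459, 95% interval -0.38 to -0.19). RGS12, a large scaffold that also binds Ras and Raf proteins, had 27.7, 33.0 and 28.9 CPM in control and 31.7, 32.9 and 32.1 CPM in PELP1-KD replicates. Control replicate 2 of RGS12 was above all PELP1-KD replicates, and the log2FC was 0.10 (SE 0.0669, 95% interval -0.04 to 0.24). RGS14, which like RGS12 joins an RGS domain to Ras-binding domains and a GoLoco motif, had 5.38, 5.10 and 5.46 CPM in control and 4.92, 7.12 and 7.10 CPM in PELP1-KD replicates. PELP1-KD replicate 1 of RGS14 was the lowest of the 6 replicates while the other two were the highest, and the log2FC was 0.28 (SE 0.138, 95% interval -0.01 to 0.57). Without control replicate 2 for RGS12, and without PELP1-KD replicate 1 for RGS14, the gene passed the threshold as higher, with a log2FC of 0.19 and 0.43. The summed CPM of the R12 members was 144, 157 and 149 in control and 128, 131 and 139 in PELP1-KD replicates, which is 11.4% lower without overlap, and RGS10 makes up most of it.

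Of the RZ members, RGS19 (also called GAIP, a regulator of Gi that is found on clathrin-coated vesicles) had 12.7, 14.2 and 14.9 CPM in control and 15.4, 17.4 and 17.4 CPM in PELP1-KD replicates. The groups did not overlap, but control replicate 3 and PELP1-KD replicate 1 were close. The log2FC of RGS19 was 0.27 (SE 0.0854, 95% interval 0.09 to 0.45), and it did not pass the threshold without PELP1-KD replicate 2 or without PELP1-KD replicate 3, at 0.24 each. RGS20, a regulator of Gz, had 6.09, 6.12 and 7.77 CPM in control and 6.36, 5.81 and 5.65 CPM in PELP1-KD replicates. Its groups overlapped, and its log2FC was -0.16 (SE 0.124, 95% interval -0.42 to 0.10). RGS17, a further regulator of Gz, had 16, 26 and 30 counts in control and 21, 18 and 26 counts in PELP1-KD replicates. The groups of RGS17 overlapped as well, and its interval, from -0.87 to 0.25 around a log2FC of -0.31 (SE 0.268), was the widest after that of RGS16. Without control replicate 3, the highest of the 6, the log2FC of RGS17 was -0.07. The summed CPM of the RZ members, 21.8 ± 2.34 CPM in control cells against 23.7 ± 0.754 CPM after PELP1-KD (SD over n = 3), overlapped between groups.

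**Figure D2:**
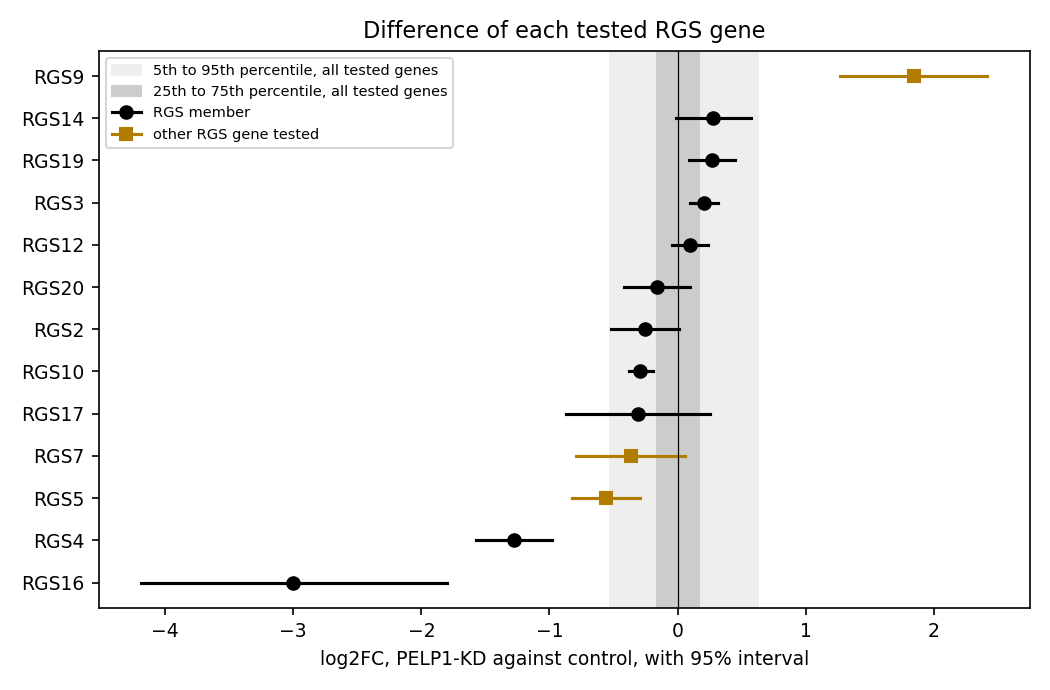
log2FC of PELP1-KD against control (x axis) with its 95% interval for the 10 RGS members (black circles) and the 3 other RGS genes tested (ochre squares), ordered by value. The grey bands hold the middle of all tested genes, from the 25th to the 75th percentile (-0.16 to 0.17) and from the 5th to the 95th (-0.53 to 0.63), and RGS4, RGS16, RGS5 and RGS9 lie outside the wider band.

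The spread among replicates was also not the same in all members. Relative to counting noise, where a chi-square per degree of freedom of 1 stands for no further spread, RGS4 had 0.253 in control and 1.18 in PELP1-KD replicates, and RGS16 had 0.662 and 1.57. RGS10 had 3.24 and 6.03. RGS12 had 5.16 in control and 0.218 in PELP1-KD replicates, while RGS14 had 0.137 and 5.03. Each of these values rests on 3 replicates. The coefficient of variation of RGS10 was nevertheless small, at 3.79% in control and 5.35% in PELP1-KD cells.

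Levels were compared between genes in RPKM. In control cells RGS10 stood first with 91.6 RPKM ± 3.47 (SD, n = 3), RGS19 followed with 6.86 RPKM ± 0.561 (SD, n = 3) and RGS3 with 3.11 RPKM ± 0.0785 (SD, n = 3). RGS2, RGS12 and RGS20 came next at 2.46, 2.17 and 2.09 RPKM, and the replicates of neighbours among these overlapped. RGS14 at 1.40 RPKM and RGS4 at 1.28 RPKM also overlapped. RGS16 at 0.279 RPKM and RGS17 at 0.160 RPKM were lowest. In PELP1-KD cells RGS10 was at 75.2 RPKM ± 4.02 (SD, n = 3), RGS19 at 8.26 RPKM ± 0.580 (SD, n = 3) and RGS3 at 3.61 RPKM ± 0.161 (SD, n = 3), in the same places. Here RGS12 stood above RGS2 without overlap, RGS4 at 0.525 RPKM stood below RGS14 without overlap, and RGS16 at 0.0328 RPKM moved to last place behind RGS17 at 0.128 RPKM. RGS3 and RGS12 have many isoforms, and their exon lengths of 13793 and 13755 bases lower their RPKM. With the length of 1 principal transcript instead, RGS3 had 9.35 RPKM and stood ahead of RGS19 at 8.73 RPKM in control cells, while RGS10 stayed first and RGS14, RGS4, RGS16 and RGS17 kept their places.

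RGS10 alone held 82.2% ± 0.430 (SD, n = 3) of the summed RPKM of the 10 members in control cells and 78.6% ± 0.824 (SD, n = 3) in PELP1-KD cells. The share of RGS19 was 6.16% ± 0.381 (SD, n = 3) and 8.64% ± 0.517 (SD, n = 3), and that of RGS3 was 2.80% ± 0.0520 (SD, n = 3) and 3.77% ± 0.165 (SD, n = 3). The shares of RGS4 were 1.25%, 1.10% and 1.10% in control and 0.573%, 0.477% and 0.591% in PELP1-KD replicates. All of these shares were without overlap between groups. Shares are parts of the same sum, so a lower RGS10 raises those of the others. The share of RGS12, whose CPM overlapped between groups, also did not overlap, at means of 1.95% in control and 2.45% in PELP1-KD cells. With the length of 1 principal transcript, RGS10 held 80.3% and 76.1%.

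**Figure D3:**
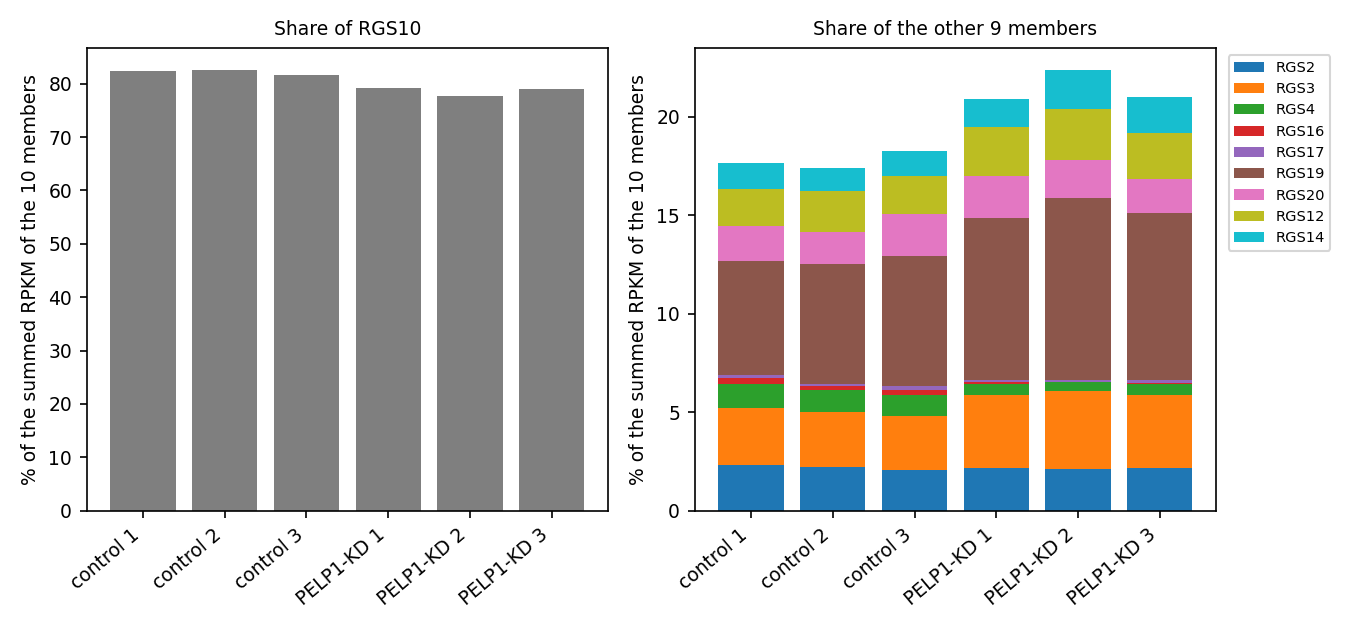
Share (y axis, percent, from 0) of each member in the summed RPKM of the 10 RGS members in each replicate, with RGS10 in the left panel and the other 9 members stacked in the right panel on their own scale. RGS10 takes between 81.7% and 82.6% in control and between 77.6% and 79.1% in PELP1-KD replicates, and RGS19 is the largest of the others in all 6 replicates.

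The family has 11 further genes of this name in the count tables, and 8 of them had fewer than 2 counts in all 6 replicates together. RGS1 had 1 count, and RGS6, RGS8, RGS11, RGS13, RGS18, RGS21 and RGS22 had 0. The other 3, RGS5, RGS7 and RGS9, were tested. RGS9, the R7 protein that ends the light response in photoreceptors, had 11, 9 and 13 counts in control replicates and 50, 41 and 43 counts in PELP1-KD replicates. The lowest PELP1-KD replicate, at 1.83 CPM, was above the highest control replicate, at 0.732 CPM, and RGS9 rose by a log2FC of 1.85 (SE 0.275, edgeR adjusted p = 1.37e-05). Over the 12 alternatives that gave a value, its adjusted p-value was between 4.66e-10 and 0.000276. RGS9 passed the filter on low counts through the PELP1-KD replicates, since only 2 of the 3 control replicates reached 0.498 CPM. The filter of 10 counts in every replicate gave it no value. Nothing is therefore read from its call or from the range of its adjusted p-values.

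RGS5, an R4 protein best known from pericytes, had 6.03, 5.63 and 5.58 CPM in control and 4.16, 3.70 and 3.87 CPM in PELP1-KD replicates. It fell by 0.56 on the log2 scale (SE 0.127, edgeR adjusted p = 0.00117, n = 3), with no overlap between groups. An annotated RGS5 exon overlaps NUF2 on the opposite strand, and whether the counting used strand is not given in the sources used here. NUF2 had 156 CPM in control and 125 CPM in PELP1-KD cells, a log2FC of -0.33, and its part in the RGS5 count was not tested. RGS7, an R7 protein of the nervous system, had a log2FC of -0.36 (SE 0.204), which did not pass the threshold (edgeR adjusted p = 0.15). The partners of the R7 proteins did not pass it either. GNB5, the beta subunit that pairs with them, had 58.9 CPM and 57.4 CPM with a log2FC of -0.04, and 0.01 by library totals. RGS9BP, which anchors RGS9 to membranes, had 1.11 ± 0.348 CPM in control cells against 1.68 ± 0.154 CPM after PELP1-KD (SD over n = 3), a log2FC of 0.59 (edgeR adjusted p = 0.0533).

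The other genes of G-protein signaling were taken from lists of families by symbol. These lists were chosen with earlier results of these data known. Their shares and the adjusted p-values of their genes are therefore a description and not an independent test. Of 120 listed genes, the RGS genes outside the members included, 74 were tested, of which 22 (29.7%) were lower and 21 (28.4%) higher past 0.05 in edgeR's adjusted p, against 24.2% and 22.7% of all tested genes. Scaled by library totals, 17 were lower and 26 higher. The median log2FC of the 74 was -0.03. Most differences were small, and 6 of the listed genes, RGS9 included, had a log2FC beyond 1. Among these, RGS9, F2RL3 and PTGER2 were near or below the filter on low counts in their lower group.

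The alpha subunits are the direct targets of RGS proteins. Of the 5 tested Gi, Go and Gz genes 1 was lower and 1 higher. GNAI2, with the highest RPKM of them, had 473 ± 9.94 CPM in control cells against 455 ± 13.1 CPM after PELP1-KD (SD over n = 3, log2FC -0.06, edgeR adjusted p = 0.122), and it passed as lower without control replicate 1 or PELP1-KD replicate 2, at -0.08 each. GNAI3 fell by 0.17 on the log2 scale (SE 0.0354, edgeR adjusted p = 0.000661, n = 3). Of the 3 tested Gq and G11 genes 2 were lower, among them GNA15, a Gq-class subunit of blood and epithelial cells, from 41.9 CPM to 31.3 CPM (log2FC -0.42, edgeR adjusted p = 1.88e-05). GNA11 had a log2FC of 0.04. Both Gs genes were lower, GNAS with a log2FC of -0.13 and GNAL with a log2FC of -0.90, and GNAL did not pass the threshold without control replicate 1, at -0.64. Of the G12 and G13 genes, GNA13 was lower with a log2FC of -0.13, which did not pass by library totals, at -0.08, or without control replicate 1, at -0.09, and without PELP1-KD replicate 1 or 2, at -0.12 each, and GNA12 did not pass with a log2FC of -0.01, or 0.04 by library totals.

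Of the 8 tested beta and gamma subunits 3 were lower and 2 higher. GNB2 and GNG5 had the highest RPKM, and their log2FC was 0.08 (edgeR adjusted p = 0.083) and 0.13 (edgeR adjusted p = 0.025). GNG5 did not pass without control replicate 1, at 0.10, control replicate 2, at 0.12, or PELP1-KD replicate 2, at 0.10, and GNB2 passed as higher by library totals, at 0.13. Of the 14 tested proteins that carry a related RGS-homology domain, such as the G-protein-coupled receptor kinases, the axins and the RhoGEFs that answer to G12 and G13, 3 were lower and 5 higher. GRK6 rose by a log2FC of 0.17 (edgeR adjusted p = 0.00285), and ARHGEF1 had a log2FC of 0.06 (edgeR adjusted p = 0.172), which passed as higher by library totals, at 0.11. Of the 8 tested chaperones, GoLoco proteins and arrestins 2 were lower and 4 higher. GPSM3, a GoLoco protein, rose from 47.7 ± 0.176 CPM to 70.5 ± 0.933 CPM (SD over n = 3), with log2FC 0.57 (edgeR adjusted p = 4.53e-09). RIC8A, a chaperone of alpha subunits, had a log2FC of 0.01.

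Of the 7 tested effector enzymes, the adenylyl cyclases and the phospholipases C beta, 1 was lower and 2 were higher. PLCB4, an effector of Gq, rose from 1.32 ± 0.311 CPM to 11.9 ± 0.643 CPM (SD over n = 3), with log2FC 3.20 (SE 0.150, edgeR adjusted p = 6.74e-13). PLCB3 fell by 0.15 on the log2 scale, and ADCY3 had a log2FC of -0.06 (edgeR adjusted p = 0.222). Of the 20 tested receptors 6 were lower and 6 higher. LPAR1, a receptor for lysophosphatidic acid, fell from 27.3 ± 2.57 CPM to 5.48 ± 0.543 CPM (SD over n = 3), with log2FC -2.32 (edgeR adjusted p = 1.19e-13). F2RL3, a protease-activated receptor, was lower with a log2FC of -1.30, and did not pass without PELP1-KD replicate 1, at -1.03. F2RL2, of the same group, and PTGER2, a prostaglandin receptor, were higher with a log2FC of 1.06 and 1.37, all 3 at means below 2 CPM. The PELP1-KD mean of F2RL3, 0.385 CPM, and the control mean of PTGER2, 0.276 CPM, were below the 0.498 CPM of the filter on low counts. F2RL3 and PTGER2 were thus kept mainly for the group where they were higher, and nothing is read from their calls. F2RL1 and ADORA2B, the listed receptors with the highest RPKM, fell by 0.24 and 0.30 on the log2 scale.

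**Figure D4:**
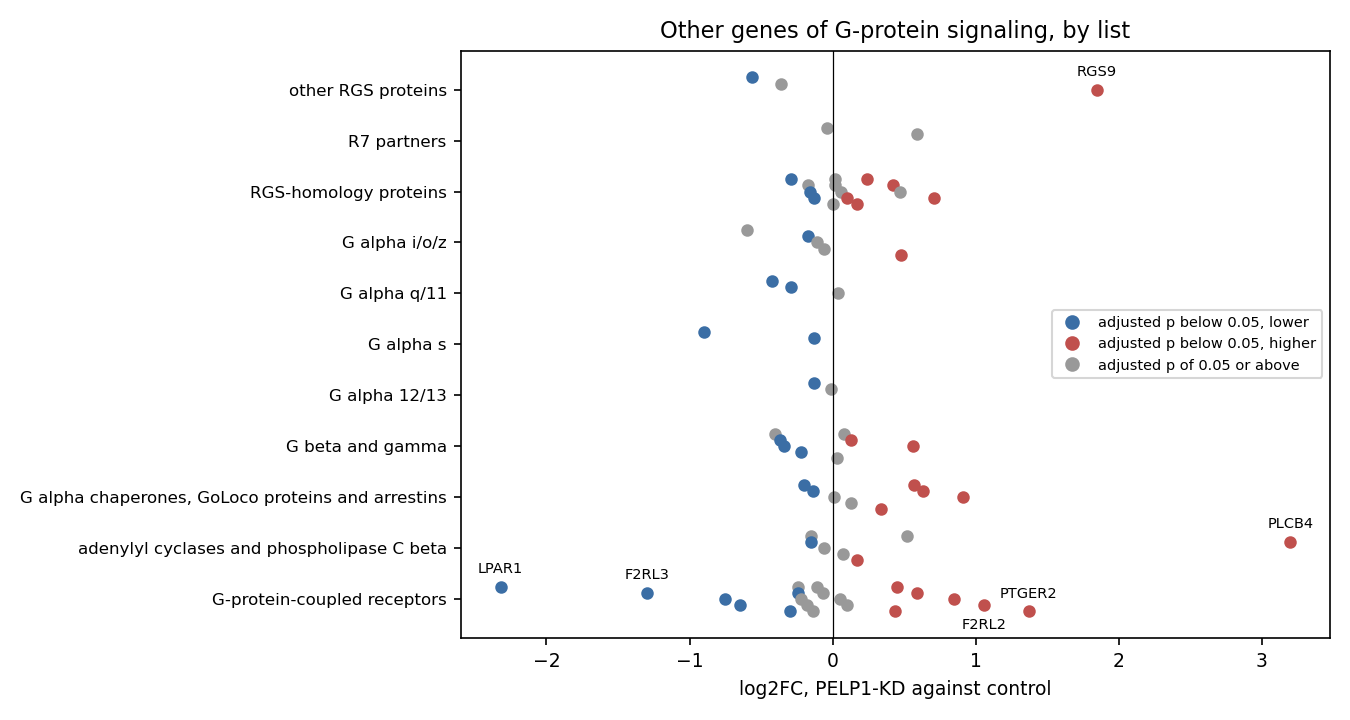
log2FC of PELP1-KD against control (x axis) of the 74 tested genes of G-protein signaling outside the members, 1 point per gene in the row of its list, coloured by edgeR's adjusted p (threshold 0.05) and its direction. Genes with a log2FC beyond 1 are named, from LPAR1 at -2.32 to PLCB4 at 3.20, and the others spread to both sides of 0.

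The genes with the pattern most like a member were found from the log2 CPM of the 6 replicates, each gene centred on its own mean, by the smallest Euclidean distance. For RGS16, the member with the lowest log2FC, these were C10orf116, FAM155A and MAL2, at distances of 0.621, 0.753 and 0.811 and a log2FC of -2.38, -3.01 and -2.14. For RGS14, the member with the highest log2FC, they were PRR22, LOC285033 and EGLN3, at distances of 0.145, 0.149 and 0.166 and a log2FC of 0.34, 0.35 and 0.25. RGS14 did not pass the threshold and its groups overlapped, so this match rests largely on differences between single replicates. The matched genes of both members had means between 0.869 and 3.43 CPM, where the prior count added to log2 CPM narrows distances.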

How the data were processed

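RNA-seq libraries of poly(A) RNA from MDA-MB-231 cells were read as single 50-base reads, with 3 control and 3 PELP1-KD replicates. The authors deposited counts of reads per gene symbol for each replicate, without normalization or pooling. The submitters' processing notes name TopHat2, SAMtools, HTSeq and bcl2fastq and the build hg19. Versions, annotation and use of strand are not given in the sources used here. The closing rows, which name no gene, were left out of library sizes and tests: reads on no feature (7.64% to 8.19% of each table), ambiguous reads (0.657% to 0.688%) and reads with several alignments (32.5% to 32.9%), so a gene that shares sequence with a copy loses reads.

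All further values were computed here, the fits in R 4.3.3. Genes passing filterByExpr (minimum count 10) were scaled by TMM and tested with the quasi-likelihood test of edgeR 4.0.16, with Benjamini-Hochberg adjustment over 12796 genes. Standard errors (SE) were taken from the log2FC and the F statistic. log2 CPM used a prior count of 2. Exon lengths came from GENCODE 29 on GRCh38, with a length for 92.4% of symbols, and promoter windows from RefSeq, so coordinates are not those of the counting. Replicates of a group differed beyond sampling noise (chi-square per degree of freedom 1.46 to 3.99). The fit was tested on simulated data. Alternatives were RLE factors, library totals, DESeq2 1.42.0, voom in limma 3.58.1, 2 other filters, a block for the replicate number, each replicate omitted once, and, added after seeing the data, another gene length.

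The members and gene lists were chosen with earlier results of these data known. The genes named are all members, the other tested RGS genes, and in each signaling list those past the adjusted p-value of 0.05 with a log2FC beyond 1 and the 2 with the highest RPKM, with PELP1, the 3 genes most like the highest and the lowest member, and the markers. NUF2 was named after its values were seen, for its overlap with RGS5.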

Additional observations from a re-analysis of the deposited data

How the results depend on the processing

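No member changed sign in 129 values of its log2FC under the 13 alternatives, and 127 of these moved by less than 1 SD between replicates. The 2 that moved were those of RGS16, at -3.72 without PELP1-KD replicate 1 and -2.45 without PELP1-KD replicate 2. When single replicates were omitted, between 1 and 3 members passed the threshold as higher, as RGS19 left or RGS12 or RGS14 joined, and 3 members passed as lower each time. RGS16, RGS9, F2RL3 and PTGER2 have no value where at least 10 counts were asked of every replicate, and 2 members then passed as lower.

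The labels number replicates 1 to 3 within each group and do not say whether same-numbered replicates were handled together. Their deviations from the group means had correlations of 0.0388, 0.0653 and -0.0784, and 1 of 3 correlated best with its own number. With 3 replicates per group this cannot decide whether they were paired. With the replicate number as a block, 3 members passed as lower and 2 as higher, and 3335 genes were lower and 3140 higher of all tested. With the length of 1 principal transcript, the summed RPKM of the members was 178 in control and 154 in PELP1-KD cells, in place of 111 and 95.7, because these lengths are shorter. Of the other 28 genes named, GNB5 and GNA12 changed sign by library totals, to 0.01 and 0.04, and RIC8A, between 0.00 and 0.03 when single replicates were omitted, was at its lowest without control replicate 3. RGS9BP passed as higher under voom, under the filter of 10 counts in every replicate, by library totals and without control replicate 3. GNB2 passed as higher with the block, at 0.08, and by library totals, as did ARHGEF1 by library totals, and GNAI2 passed as lower without control replicate 1 or PELP1-KD replicate 2. Calls were lost for PTGER2 in DESeq2, at 1.39, for GNG5 in 3 settings, for GNA13 in 4, and for GNAL and F2RL3 in 1 each.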

Other observations

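The RGS genes cluster on chromosome 1, which holds 10 of the 21 named RGS genes. The 5 tested among them, RGS2, RGS4, RGS5, RGS7 and RGS16, all had a log2FC below 0, with a median of -0.555. This was looked at after the values were seen and was not tested. Of the 1149 tested genes other than RGS genes placed on chromosome 1 by GENCODE 29, 52.9% had a log2FC below 0, with a median of -0.017, against 50.2% of the 11311 tested genes with a place.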
